A study of Mus musculus with 27 samples.

Results

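Fatty acid desaturases and elongases are represented here by 8 genes of the liver, namely the desaturases Fads1, Fads2, Scd1 and Scd2 and the elongases Elovl1, Elovl2, Elovl5 and Elovl6. They were chosen by name out of 18820 measured genes, and each was read from the probe set that names it alone, of which every member had 1. Liver RNA of 27 C57BL/6J pups was hybridised to 1 Affymetrix Mouse Gene 1.1 ST array per pup at 2 weeks of age. The dams of one set of pups received a Western-style diet (WSD, 45% of energy from fat and 196.5 mg cholesterol per kg) and those of the other set a low fat diet (LFD, 10% of energy from fat and 18.0 mg cholesterol per kg). Both diets were fed from 6 weeks before mating through gestation and lactation, all sires came from the control diet, and litters were standardized in size. The groups were 6 males and 6 females of WSD dams and 6 males and 9 females of LFD dams. No genetic change is named for any pup, the diets were given to the dams, and the array labels do not say which dam a pup came from.

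Long-chain fatty acids are remodelled in the endoplasmic reticulum by desaturases, which place double bonds at fixed positions of the chain, and by elongases, which carry out the condensing step that lengthens it by a pair of carbons. The delta-6 desaturase Fads2 and the delta-5 desaturase Fads1 act in turn with Elovl5 and Elovl2 to make arachidonic acid, EPA and DHA from the essential fatty acids of the diet, whereas Scd1 and Scd2 make oleic and palmitoleic acid from saturated chains, Elovl6 extends palmitic acid, and Elovl1 acts on very long saturated chains. In liver, genes of these steps are known targets of SREBP1c, LXR and PPARA, and polyunsaturated fatty acids lower the expression of several of them.

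All values are log2 intensities after robust multi-array averaging (RMA), on a scale where a difference of 1 is a 2-fold change. A gene was called changed at an unadjusted limma p of at most 0.01. P-values adjusted by Benjamini and Hochberg over all genes tested are given beside the main calls of the members and many other results. An exact permutation p over pups is given beside part of the member results. Of the 8 members, 6 passed both filters and were tested among 10810 genes. The filters asked that 4 or more arrays reach a signal of 20, and that the interquartile range (IQR) over all arrays reach 0.1 log2. Elovl2 (IQR 0.0626) and Elovl5 (IQR 0.0973) varied less than the limit and were tested among the 13279 genes that passed the signal filter. All 8 members were above the signal limit on all 27 arrays.

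The tissue label was checked against hepatocyte markers. The 7 measured hepatocyte genes, among them Alb, Ttr, Apoa1 and Cps1, averaged between 12.60 and 12.80 on every array, while of the 5 measured fat cell genes Adipoq, Lep and Retn averaged 3.43, 3.69 and 4.01, below the signal limit of 4.32, and Plin1 and Cidec averaged 4.86 and 4.76, above it. Array medians lay between 5.34 and 5.43.

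On maternal WSD, females had higher levels of Fads1 and Fads2, the desaturases of the polyunsaturated pathway, 1.14-fold and 1.10-fold, and of the elongase Elovl5, 1.07-fold. These were calls at the unadjusted threshold. The limma adjusted p was 0.0662 for Fads1, 0.155 for Fads2 and, with the signal filter alone, 0.167 for Elovl5. No member changed in males at the same threshold. Scd1 had the largest SD of the members in 3 of the 4 groups, all but LFD males, where Elovl6 had it, and did not pass in either sex, and the remaining members, Scd2, Elovl1, Elovl2 and Elovl6, did not pass either. In females 2 of the 6 members tested with both filters rose and none fell, against 5.19% of all genes called in either direction and 3.6% called higher. In males 0 of 6 were called, against 5.62% of all genes, with limma, and none of these 6 had an unadjusted p under 0.05. The median log2 change over these 6 members was -0.02 in males and 0.06 in females, and that over all genes tested was 0.01 in each sex.

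**Figure D1:**
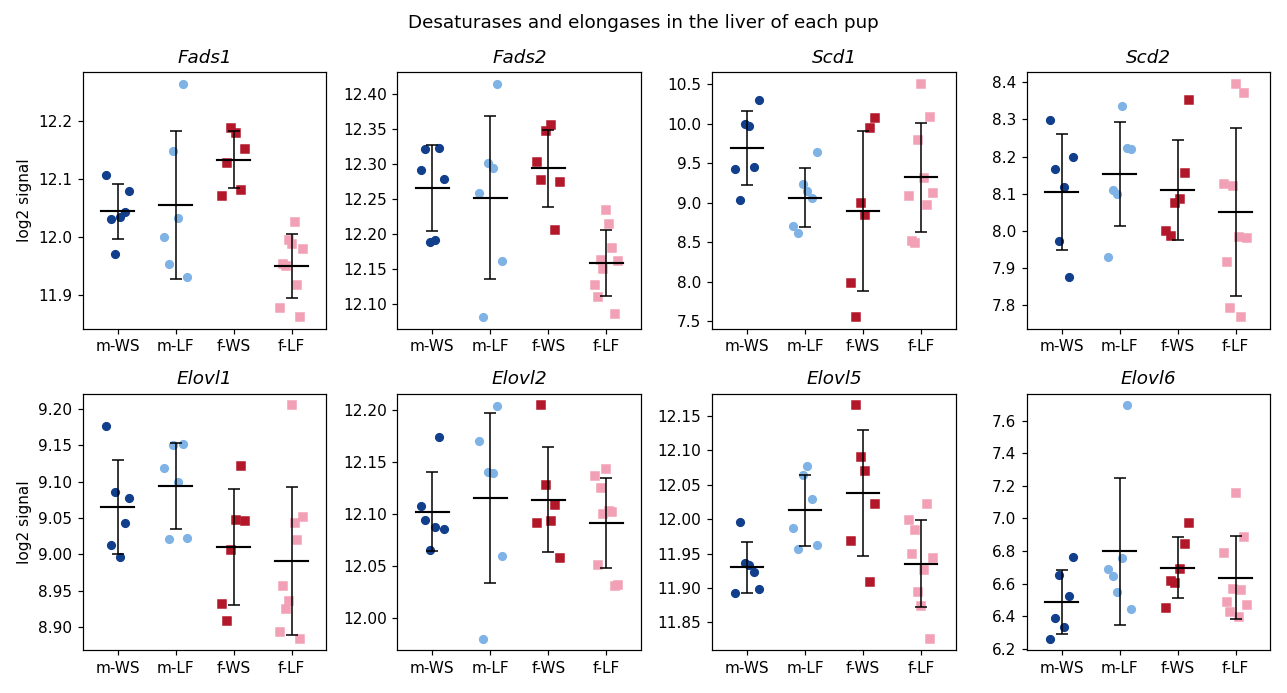
Log2 signal of the 8 members in the liver of each pup, with 1 panel per gene and its own vertical axis. Points are pups of WSD males (m-WS), LFD males (m-LF), WSD females (f-WS) and LFD females (f-LF), lines are group means and bars the SD (n = 6, 6, 6 and 9). Fads1 of the WSD females lies wholly above that of the LFD females, and Scd1 covers 2 to 3 log2 units within the females of each diet.

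Fads1 (Entrez gene 76267, GRCm38.p6 chr19:10182877-10196874), the delta-5 desaturase, had a lowest, median and highest signal of 12.07, 12.14 and 12.19 in WSD females, against 11.86, 11.95 and 12.03 in LFD females. Every one of the 6 WSD females was above every one of the 9 LFD females, a separation that 0.342% of all genes tested showed in this direction. The log2 change was 0.18 (SE 0.04, 95% interval 0.09 to 0.27, limma p = 0.000259, adjusted p = 0.0662, exact permutation p = 0.0002). That permutation p is the smallest the pups can give, 2-sided. With the signal filter alone the adjusted p of Fads1 was 0.0340. With that filter and the number in the array label as a random block, the limma adjusted p of Fads1 was 0.0793. The array labels also carry 1 of 2 prefixes that they do not explain, and within these the change of Fads1 in females was 0.16 (G073, no call, adjusted p = 0.534) and 0.23 (G074, a call, adjusted p = 0.511).

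In males, the lowest, median and highest Fads1 signals were 11.97, 12.04 and 12.11 on WSD, against 11.93, 12.02 and 12.26 on LFD. The WSD males thus lay inside the range of the LFD males. The log2 change of Fads1 in males was -0.01 (SE 0.05, 95% interval -0.11 to 0.09, exact permutation p = 0.870). The change in males minus that in females was -0.19 (SE 0.07, limma adjusted p = 0.377), which made Fads1 the 1 of 6 members with a call for this difference, against 2.5% of all genes. This call was lost without LFD male 3, LFD male 5, WSD male 3, WSD female 3 or WSD female 4, where the difference of Fads1 lay between -0.19 and -0.15 and its adjusted p between 0.414 and 0.542.

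The order of the Fads1 group means was WSD females (12.13 ± 0.05), LFD males (12.06 ± 0.13), WSD males (12.04 ± 0.05) and LFD females (11.95 ± 0.05; SD, n = 6, 6, 6 and 9). The males of the 2 diets did not differ beyond their spread. On WSD the males were 0.09 below the females (limma adjusted p = 0.522), and on LFD they were 0.11 above them (adjusted p = 0.740), so that neither gap between the sexes was called.

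Fads2 (chr19:10062765-10101503), the delta-6 desaturase that catalyses the first step of the same pathway, lies 81.37 kb from Fads1 in the fatty acid desaturase cluster. Its lowest, median and highest signals were 12.21, 12.29 and 12.36 in WSD females, against 12.09, 12.16 and 12.23 in LFD females. Of the 6 WSD females, 5 were above every LFD female. Fads2 rose by 0.13 log2 in females (SE 0.04, 95% interval 0.05 to 0.22, limma p = 0.00403, adjusted p = 0.155, exact permutation p = 0.000599). The call of Fads2 was lost without WSD female 3 (0.12, adjusted p = 0.285) or WSD female 4 (0.12, adjusted p = 0.261), and after each array was centred on its median (0.11, adjusted p = 0.288). Within the prefixes G073 and G074 the change of Fads2 in females was 0.11 (adjusted p = 0.597) and 0.17 (adjusted p = 0.625), without a call in either.

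In males Fads2 had 12.19, 12.29 and 12.32 on WSD, against 12.08, 12.28 and 12.41 on LFD, again with the WSD males inside the range of the LFD males. The change of Fads2 was 0.01 in males (SE 0.05, 95% interval -0.08 to 0.11, exact permutation p = 0.790). The difference between the sexes, males minus females, was -0.12 for Fads2 (SE 0.06, limma adjusted p = 0.542) and was not called.

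Elovl5 (chr9:77917365-77984519), the elongase that acts between the 2 desaturase steps, had medians on opposite sides of the LFD median in the 2 sexes. In males the lowest, median and highest signals were 11.89, 11.93 and 11.996 on WSD, against 11.96, 12.01 and 12.08 on LFD. In females they were 11.91, 12.05 and 12.17 on WSD, against 11.83, 11.94 and 12.02 on LFD. Thus 5 of 6 WSD males were below all LFD males, and 3 of 6 WSD females were above all LFD females.

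With the signal filter alone, the change of Elovl5 in males was -0.08 (SE 0.04, limma p = 0.0386, adjusted p = 0.336, exact permutation p = 0.0152) and was not called. In females Elovl5 rose by 0.10 log2 (SE 0.03, limma p = 0.00657, adjusted p = 0.167, exact permutation p = 0.0232), and 3 of the 8 members were called there, against 5.14% of all genes. The change of Elovl5 in males minus that in females was -0.19 (SE 0.05, limma adjusted p = 0.369), so that 2 of 8 members had a call for this difference, against 2.45% of all genes. On WSD, Elovl5 was 0.11 lower in males than in females (limma adjusted p = 0.299), the 1 call among the 8 members between the sexes on this diet, against 3.25% of all genes.

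The call of Elovl5 in females was lost without LFD female 4, 5 or 8 or WSD female 2, 3 or 4, with changes between 0.08 and 0.10 and adjusted p between 0.222 and 0.308, while the call of its difference between the sexes held without any 1 pup (between -0.21 and -0.16). The array labels also carry a number, and that call was lost when pups of 1 sex that share it were averaged (-0.19, adjusted p = 0.796), without the pups of number 49 (-0.15, adjusted p = 0.675) and within prefix G074 (-0.21, adjusted p = 0.986). Under quantile normalization repeated on the deposited values, the change of Elovl5 was -0.10 in males, then a call (adjusted p = 0.173), and 0.05 in females, then none (adjusted p = 0.488). With array weights Elovl5 was called in both sexes, at -0.10 in males (adjusted p = 0.140) and 0.09 in females (adjusted p = 0.148).

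**Figure D2:**
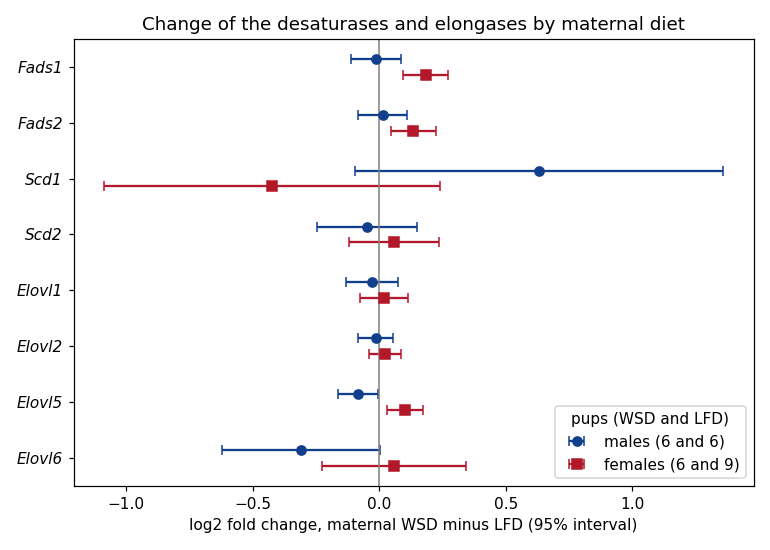
Log2 fold change of each member, maternal WSD minus LFD, in males (circles, 6 and 6 pups) and females (squares, 6 and 9 pups), with 95% intervals from limma. The intervals of Fads1, Fads2 and Elovl5 in females lie above 0, and that of Elovl5 in males lies below 0, without a call. Those of Scd1 are the widest, and those of Elovl1 and Elovl2 include 0 in both sexes. Elovl2 and Elovl5 are from the fit with the signal filter alone.

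Promoter windows of 250 bases before the start site were read from RefSeq for Fads2 and Elovl5, 2 of the 3 members called in females, to show what lies at their starts. RefSeq windows of build GRCm38.p6 matched 5 of the 8 members, which left Fads1, Scd1 and Scd2 without one. Each sequence runs 5′ to 3′ on the gene's own strand up to the base before the start site, at chr19:10101504-10101753 (minus strand) for Fads2 and chr9:77917115-77917364 (plus strand) for Elovl5. Capitals mark a GC box (GGGCGG) in Fads2 and, in Elovl5, an E-box (CACGTG) and a pair of CCAAT boxes on the opposite strand (read as ATTGG).
Fads2: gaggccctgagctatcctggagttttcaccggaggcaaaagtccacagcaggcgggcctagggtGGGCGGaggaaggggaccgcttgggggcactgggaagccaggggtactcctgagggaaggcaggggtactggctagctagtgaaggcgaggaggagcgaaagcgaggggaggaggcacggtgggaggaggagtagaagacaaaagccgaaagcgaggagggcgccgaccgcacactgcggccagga
Elovl5: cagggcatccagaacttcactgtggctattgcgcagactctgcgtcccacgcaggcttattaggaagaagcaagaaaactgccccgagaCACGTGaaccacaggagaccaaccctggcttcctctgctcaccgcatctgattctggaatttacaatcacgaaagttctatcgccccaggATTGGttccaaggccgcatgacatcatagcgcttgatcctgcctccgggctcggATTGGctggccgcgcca

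Counted from the start site, the GC box of Fads2 began at base -186, the E-box of Elovl5 at base -161 and its CCAAT boxes at bases -71 and -17. Searched on both strands over 32851 RefSeq windows of the same length, GGGCGG occurred in 32.7%, CCAAT in 33.8% and CACGTG in 6.02% of them. The core of the sterol regulatory element (CACNCCAC, in 5.29% of windows) matched none of the windows of the 5 members. Elovl1 held GC boxes and 1 CCAAT box, Elovl2 held GC boxes in 1 of its 2 windows, and Elovl6 held none of the motifs.

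Scd1 (chr19:44394450-44407709), the main delta-9 desaturase of liver, varied most of all members, with an IQR of 0.96 log2 over the 27 arrays. The lowest, median and highest signals were 9.03, 9.71 and 10.30 in WSD males, against 8.62, 9.10 and 9.65 in LFD males. In females they were 7.55, 8.92 and 10.07 on WSD, against 8.49, 9.13 and 10.51 on LFD. Of the WSD males 3 of 6 were above all LFD males, and 2 of 6 LFD males were below all WSD males. Of the WSD females 2 of 6 were below all LFD females, and 2 of 9 LFD females were above all WSD females.

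The log2 change of Scd1 was 0.63 in males (SE 0.35, 95% interval -0.09 to 1.36, limma p = 0.0859, adjusted p = 0.442, exact permutation p = 0.0325) and -0.42 in females (SE 0.32, 95% interval -1.09 to 0.24, exact permutation p = 0.346). Neither was called. The males minus females difference of the Scd1 changes was 1.05 (SE 0.48, limma adjusted p = 0.469). Fitted on males alone, where the spread of the females did not enter, Scd1 was called in males (adjusted p = 0.147).

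The number in the array labels, which they do not explain, was 39, 40 or 48 for pups of WSD dams and 37, 49 or 50 for pups of LFD dams, with number 39 in females only. The number therefore lies within 1 maternal diet and cannot be told apart from it as a whole, but pups of the same diet can be compared by it. Scd1 followed this number in both sexes. On WSD it averaged 7.76 in the 2 females of number 39, 9.23 in the males and 8.92 in the females of number 40, and 9.93 in the males and 10.01 in the females of number 48. On LFD it averaged 8.66 in the males and 8.70 in the females of number 37, 9.19 in the males and 9.64 in the females of number 49, and 9.35 in the males and 9.60 in the females of number 50.

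Every WSD pup of number 48 was above every WSD pup of number 40, which in turn were above both pups of number 39. In a limma F-test of the number within each diet with sex as a term, a test chosen after these values were seen, Scd1 had F = 19.2 (adjusted p = 0.000161), rank 12 of 10810 genes, of which 2.78% had an adjusted p under 0.05. Leaving out each pup in turn gave adjusted p between 2.72e-05 and 0.00376 for Scd1. Number 48 was 2.27 above number 39 and number 40 was 1.37 above it, and numbers 49 and 50 were 0.80 and 0.81 above number 37. None of the other 7 members passed this test, the nearest being Fads2 (adjusted p = 0.470).

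The diet comparison of Scd1 turned on these numbers. Without number 39 its change in females was 0.14 (adjusted p = 0.886), and without number 48 it was 0.16 in males (adjusted p = 0.938) and -0.98 in females (a call, adjusted p = 0.200). By contrast, Fads1 in females kept its call without each of the 6 numbers (log2 change between 0.16 and 0.21, adjusted p between 0.0261 and 0.402), and the females averaged 12.10, 12.18 and 12.12 for numbers 39, 40 and 48, against 11.93, 11.98 and 11.92 for the LFD numbers 37, 49 and 50. With the mean of each number as 1 value, the exact permutation test of Fads1 in females gave p = 0.1, the smallest it can give with 3 numbers a diet. For Elovl5 this exact permutation test gave p = 0.2 in males and p = 0.2 in females. Of the 6 WSD males, 4 shared number 48 and 2 shared number 40. Fads2 in females lost its call without number 37, 39 or 40 (changes of 0.12, 0.14 and 0.11).

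**Figure D3:**
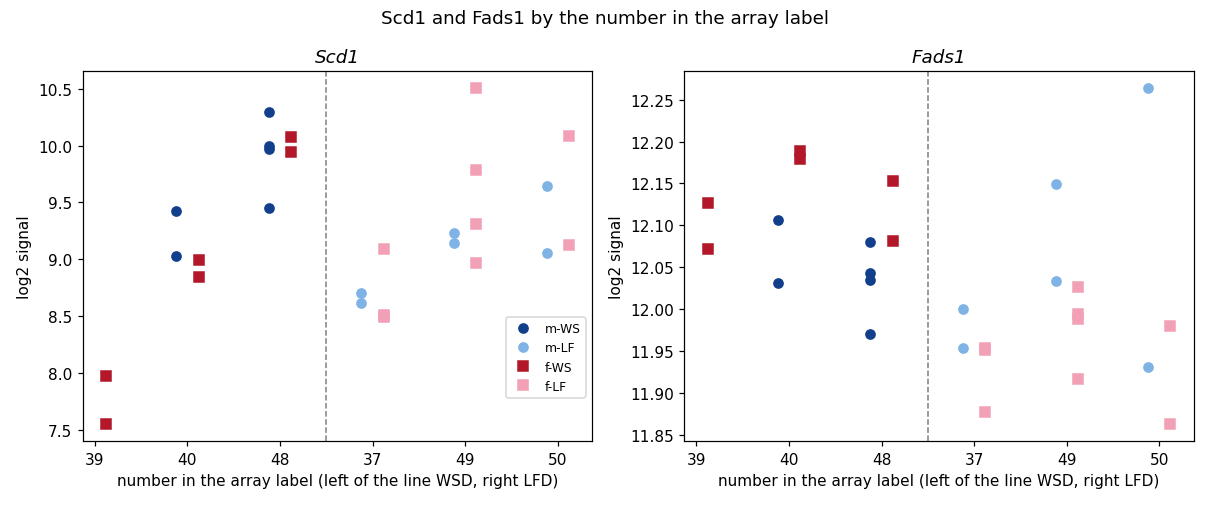
Log2 signal of Scd1 (left) and Fads1 (right) in each pup by the number in its array label, with numbers of WSD pups left of the dashed line and of LFD pups right of it (circles males, squares females). Scd1 steps from 7.55 and 7.98 in number 39 up to between 9.45 and 10.30 in number 48 on the same diet, while Fads1 of the females separates by diet.

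Scd2 (chr19:44293676-44306864), a delta-9 desaturase known best from brain that lies 87.58 kb from Scd1, had 7.87, 8.14 and 8.30 as lowest, median and highest signal in WSD males, against 7.93, 8.17 and 8.34 in LFD males. In females it had 7.99, 8.08 and 8.35 on WSD, against 7.77, 7.98 and 8.40 on LFD. The groups overlapped nearly in full. The changes of Scd2 were -0.05 in males (95% interval -0.24 to 0.15) and 0.06 in females (95% interval -0.12 to 0.24).

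Elovl6 (chr3:129532386-129638495), which extends palmitic to stearic acid and so works next to Scd1, had the largest estimated change among the elongases, which was not called. Its lowest, median and highest signals were 6.26, 6.46 and 6.76 in WSD males, against 6.45, 6.67 and 7.69 in LFD males. In 3 of 6 WSD males Elovl6 was below all LFD males. The change of Elovl6 in males was -0.31 (SE 0.15, 95% interval -0.62 to 0.00, limma p = 0.0515, adjusted p = 0.353, exact permutation p = 0.108) and fell short of a call. LFD male 5, at 7.69, stood apart from the next LFD male at 6.76, and without it the change of Elovl6 was -0.13 (adjusted p = 0.665). In females Elovl6 had 6.45, 6.65 and 6.97 on WSD, against 6.40, 6.56 and 7.16 on LFD, with a change of 0.06 (SE 0.14, 95% interval -0.23 to 0.34).

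Elovl2 (chr13:41182382-41220403), which elongates the longer polyunsaturated chains on the way to DHA, was the steadiest member. Its signal lay between 12.07 and 12.17 in WSD males, against 11.98 and 12.20 in LFD males, and between 12.06 and 12.20 in WSD females, against 12.03 and 12.14 in LFD females. The 95% intervals of its change were -0.08 to 0.06 in males and -0.04 to 0.09 in females. Elovl1 (chr4:118426874-118432953), the elongase of very long saturated chains, lay between 8.997 and 9.18 in WSD males, against 9.02 and 9.15 in LFD males, and between 8.91 and 9.12 in WSD females, against 8.88 and 9.21 in LFD females. Its 95% intervals were -0.13 to 0.07 in males and -0.07 to 0.11 in females. For both genes the WSD pups thus shared most of the range of the LFD pups.

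Between the sexes on LFD, males were above females by 0.11 log2 for Fads1, 0.09 for Fads2 and 0.10 for Elovl1 (adjusted p = 0.740 each in limma), and no member was called there, against 1.37% of all genes. On WSD, Scd1 was 0.80 higher in males than in females (adjusted p = 0.404), which was not called.

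The members varied together in part. Over the 27 pups Fads1 and Fads2 had r = 0.86, and r = 0.79 after the group means were taken off. Fads2 was the gene most like Fads1 of the 10809 compared, followed by Acsl5 (r = 0.82), which activates long-chain fatty acids, and Lss (r = 0.80), the lanosterol synthase of cholesterol synthesis. Acsl5 was also the second most like Fads2 (r = 0.81), before the complement gene C8a (r = 0.78). The pups share their array processing, and these correlations describe the 27 arrays only.

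Scd1 was linked most closely with genes outside lipid desaturation, the complement component C9 (r = 0.86), Gas1 (r = 0.84) and Gas2 (r = 0.83). C9 averaged 9.48 in the pups of number 39 and 10.37 in those of number 48, the lowest and highest of the 6 numbers, as Scd1 did. With Fads1, Scd1 had r = -0.12, with Scd2 r = 0.56, and with Elovl5 r = -0.63, so that pups with high Scd1 tended to have low Elovl5. Elovl6 was most like P3h2 (r = 0.78), Apoa4 (r = 0.76) and Epb41l3 (r = 0.76), Elovl2 most like Tmed5 (r = 0.77), Scd2 most like Slc25a24 (r = 0.77), Elovl1 most like Ccdc88b (r = 0.70) and Elovl5 most like Pick1 (r = 0.69).

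**Figure D4:**
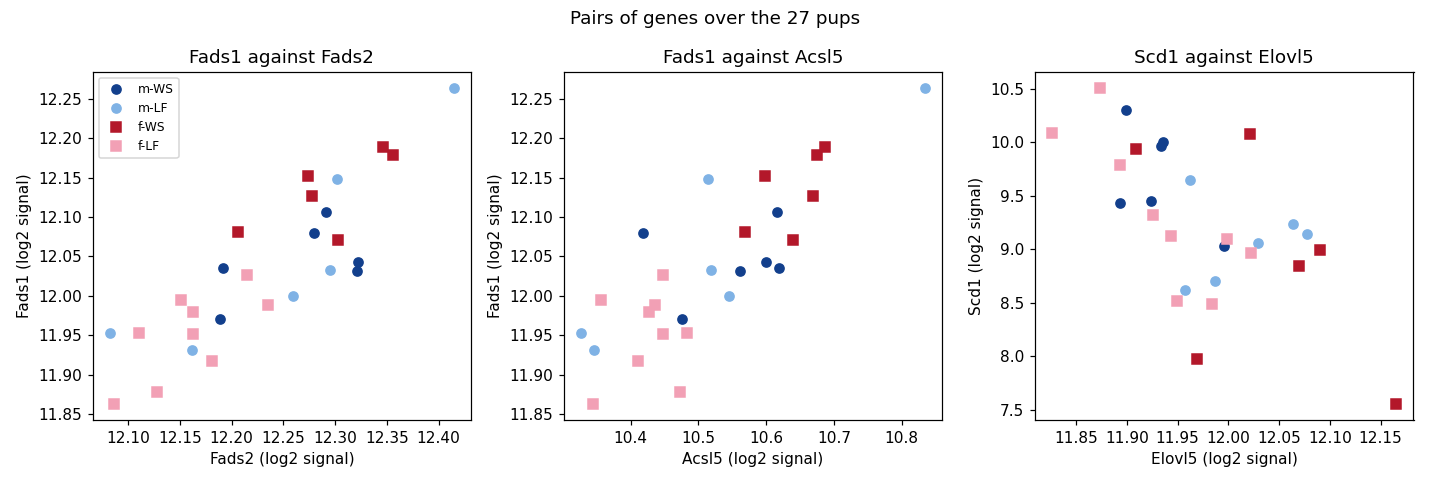
Log2 signal of gene pairs in the 27 pups, Fads1 against Fads2 (r = 0.86), Fads1 against Acsl5 (r = 0.82) and Scd1 against Elovl5 (r = -0.63). Circles are males and squares females, and the darker colour of each marks WSD.

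Genes that work around these enzymes were followed in 5 lists with 59 genes, of which 53 were measured and 38 passed both filters. In males 1 of the 38 rose and 2 fell, against 5.62% of all genes called, and in females 3 rose and 1 fell, against 5.19% of all genes. The partner enzymes of the elongation cycle with related desaturases and elongases (10 tested) had 1 fall in males and 1 rise in females. The lists of acyl-CoA handling (7 tested), peroxisomal steps (6 tested), lipogenesis (8 tested) and regulators (7 tested) had 0, 0, 0 and 1 rises in males and 1, 0, 0 and 1 in females. The falls in these lists were 1 lipogenic gene in males and 1 regulator in females. For the change in males minus that in females, 3 of the 38 were called, all higher, against 2.5% of all genes. They were Fads6 of the partner list (0.34, limma adjusted p = 0.387) and the regulators Ppargc1b (0.41, adjusted p = 0.366) and Mlxipl (0.18, adjusted p = 0.391). Fads6 changed by 0.19 in males and by -0.14 in females, without a call in either.

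Acsl5 had 10.57, 10.65 and 10.69 as lowest, median and highest signal in WSD females, against 10.34, 10.44 and 10.48 in LFD females, with no overlap. It rose by 0.21 log2 in females (SE 0.05, limma adjusted p = 0.0712). Hsd17b12, the ketoacyl reductase of the elongation cycle, rose by 0.20 in females (SE 0.07, limma adjusted p = 0.171). The call of Hsd17b12 was lost without any 1 of 7 females, LFD 1, 4 and 8 and WSD 1 to 4, with changes down to 0.17 and adjusted p up to 0.312.

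Hacd2, the dehydratase of the elongation cycle, had 11.30, 11.42 and 11.63 in WSD males, against 11.57, 11.69 and 11.78 in LFD males, with some overlap. It fell by 0.24 in males (SE 0.06, limma adjusted p = 0.0487). In females Hacd2 changed in the same direction, by -0.12 (SE 0.05, limma adjusted p = 0.270), without a call. Its change in males minus that in females was -0.11 (adjusted p = 0.666) and was not called. The call of Hacd2 in males held without any 1 pup (adjusted p between 0.0192 and 0.132). Without the pups of number 48 the change of Hacd2 in males was -0.11 (no call, adjusted p = 0.660).

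Among the regulators, Mlxipl, which encodes the carbohydrate response factor ChREBP, had 9.62, 9.75 and 9.98 in WSD females, against 9.94, 9.99 and 10.02 in LFD females. Mlxipl fell by 0.20 in females (SE 0.04, limma adjusted p = 0.0294), and kept this call in all 36 alternative settings. Srebf2, which encodes the sterol regulator SREBP2, rose by 0.25 in females (SE 0.08, limma adjusted p = 0.164), a call that was lost without LFD female 1, 4 or 5 or WSD female 3, 4 or 6, with changes of Srebf2 down to 0.19 and adjusted p up to 0.313. Srebf1, the gene of SREBP1c, had no call in males (0.17, limma adjusted p = 0.407) or in females (0.11, adjusted p = 0.588).

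Ppargc1b, a coactivator of SREBP1c, rose by 0.27 in males (SE 0.09, limma adjusted p = 0.129), and lost the call without LFD male 5 or WSD male 3 or 5, with changes of Ppargc1b down to 0.22 and adjusted p up to 0.262. Acacb, an acetyl-CoA carboxylase, fell by 0.26 in males (SE 0.10, limma adjusted p = 0.177). The call of Acacb was lost without any 1 of 9 males, LFD 2 to 5 and WSD 1, 2 and 4 to 6, with adjusted p up to 0.342 and a change of -0.18 without LFD male 5. Fasn, the fatty acid synthase, had a change of 0.07 in males (limma adjusted p = 0.857) and 0.28 in females (adjusted p = 0.207) and was not called.

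**Figure D5:**
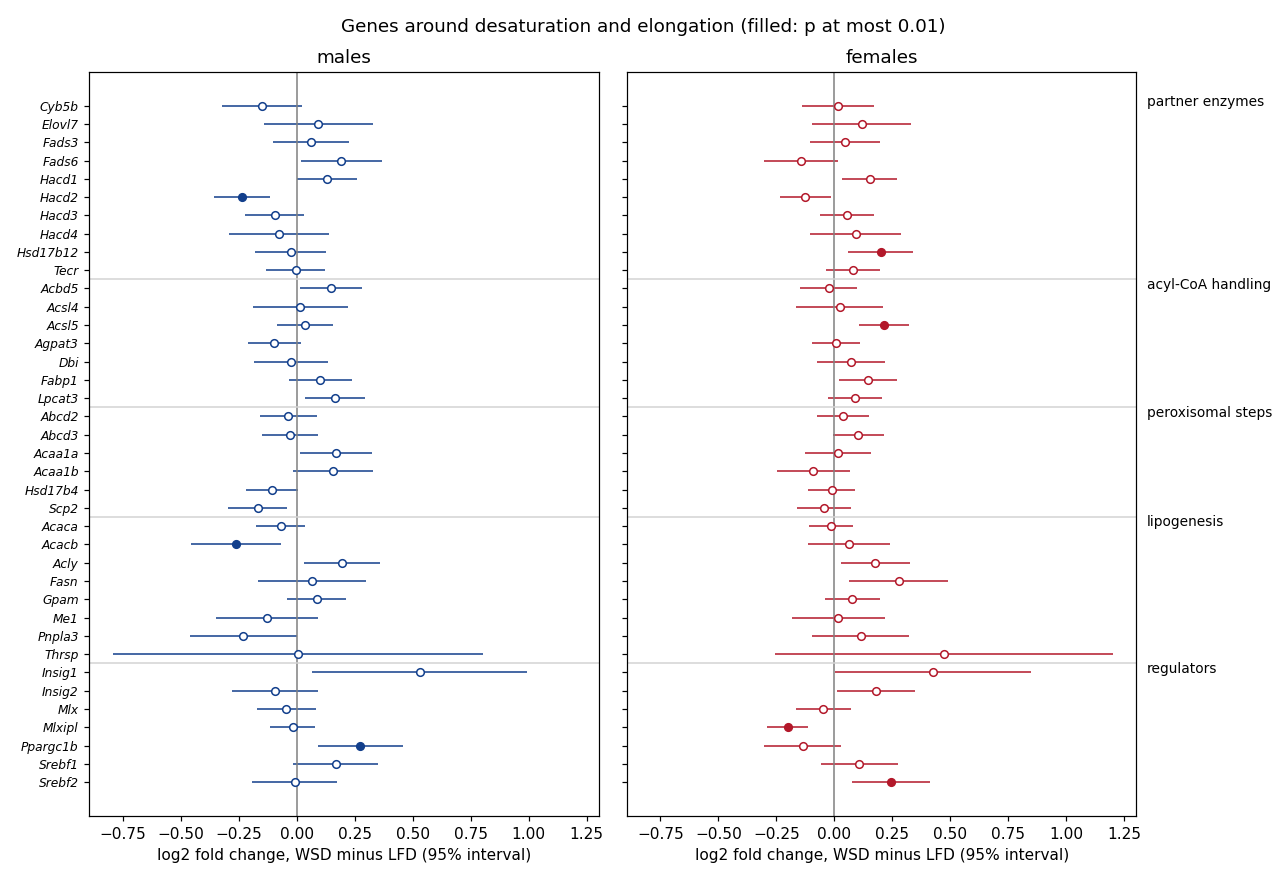
Log2 fold change, maternal WSD minus LFD, of the 38 genes around desaturation and elongation in males (left) and females (right), with 95% intervals from limma. Filled points had p at most 0.01, which in males were Hacd2, Ppargc1b and Acacb and in females Hsd17b12, Acsl5, Srebf2 and Mlxipl.

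For comparison, in a list of cholesterol synthesis genes and their close partners 1 of 17 tested rose in males, against 3.02% of all genes called higher, and 11 of 17 rose in females, against 3.6% of all genes, with median log2 changes of 0.08 in males and 0.37 in females. For the change in males minus that in females, 2 of the 17 were called, both lower, against 2.5% of all genes. Sqle, the squalene epoxidase, had the largest of the changes in females (1.31, SE 0.33, limma adjusted p = 0.0712). The males minus females difference of Sqle was -1.14 (SE 0.49, limma adjusted p = 0.434) and was not called. The lowest, median and highest signals of Sqle were 5.84, 6.22 and 7.98 in WSD females, against 4.72, 5.52 and 6.22 in LFD females.

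Markers of other cells were set beside these results. Of 49 markers of non-hepatocyte cells tested, 8 rose and 2 fell in males, against 5.62% of all genes called, and 1 rose (Tfrc) and none fell in females, against 5.19% of all genes. The 8 rises in males were 3 of 9 myeloid genes, 4 of 8 lymphoid genes and the cholangiocyte gene Sox9. The lymphoid rises were Igll1, Ebf1, Pax5 and Cd79a. Cd79b (0.56 log2), Cd3e (-0.01), Cd8a (-0.14) and Cd3g (-0.15) were not called. In the list of Sox9, Krt19 (-0.72), Krt7 (-0.27) and Epcam (-0.17) went the other way without a call. The 9 myeloid genes averaged 6.27 in WSD males (5.84 to 6.49 over pups), against 5.64 in LFD males (5.09 to 6.59). In females they averaged 6.13 on WSD (5.48 to 6.53), against 5.84 on LFD (5.35 to 6.71). The 8 lymphoid genes averaged 6.34 in WSD males and 5.86 in LFD males, and 6.31 in WSD females and 6.15 in LFD females. The part of myeloid and lymphoid cells in the values of Scd1, Elovl6 and Hacd2 in males was not tested. In bulk liver, fewer cells of a type and less RNA per cell cannot be told apart.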

How the data were processed

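The authors deposited log2 intensities after RMA (its version is not given in the sources used here) for 35556 manufacturer probe sets. The submitters' processing notes name RMA, which corrects background, normalizes quantiles over all arrays and summarizes probes, so group-wide shifts of signal would be removed. Of the probe sets, 21218 were listed with a single gene, and a gene was read from the one with the highest mean, giving 18820 genes. Symbols and coordinates came from RefSeq (GRCm38.p6) by Entrez identifier. Deposited intensities carry no counts, so the number of pups limits the precision.

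Genes had to reach a signal of 20 on 4 arrays and an IQR of 0.1 on the log2 scale. The fit used limma 3.58.1 under R 4.3.3, with a mean per group, an intensity trend and Benjamini-Hochberg adjustment over all genes tested. The fit was tested on simulated data. Single members were also tested by exact permutation over pups, 2-sided. Pups were taken as independent although their dams are not named, so p-values measure the spread between these pups. Titles share replicate numbers, whose samples correlated between -0.26 and 0.11 in males and between -0.22 and 0.26 in females, and were not paired. The 8 members and all gene lists were chosen with earlier results of these data known. Named genes were the 8 members, up to 4 genes of smallest p per list and sex, and the 3 genes most correlated with each member. Figures were drawn with matplotlib 3.10.9 (Python 3.11.15).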

Additional observations from a re-analysis of the deposited data

Results flagged for a closer look

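LFD male 5 stood apart from the other 5 LFD males in Elovl6, at 7.69 log2 against 6.76 for the next. The gap was 0.748 of the group's range, against a limit of 0.625 for 6 samples, and was the 1 such value in 32 groups of members, while chance alone marks about 1 in 20.

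The response to maternal WSD, males minus females, differed for Fads1 by -0.19 log2 (limma adjusted p = 0.377) and for Elovl5 by -0.19 (limma adjusted p = 0.369). In Fads1, 0 of 6 WSD males were above all LFD males and 6 of 6 WSD females above all LFD females. In Elovl5, 5 of 6 WSD males were below all LFD males and 3 of 6 WSD females above all LFD females. Neither passed adjustment over all genes.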

How the results depend on the processing

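The alternatives were other filters, prior variances, normalizations and array weights, each sex alone, blocks, averages and omissions by label number or prefix, and omission of each pup. Of the 6 members that passed both filters, 0 were called in males except with each sex alone (1, Scd1). Elovl5, which did not pass both, was called in males after repeated quantile normalization and with array weights. In females the count was 2, but 1 (Fads1) after centring, repeated quantile normalization or averaging by number, and without number 37, 39 or 40. It was also 1 (Fads1) within G074 and with the replicate block, and 0 within G073. Without number 48, Scd1 was called lower in females beside Fads1 and Fads2. For the difference between the sexes the count was 1, but 0 after centring, repeated quantile normalization or averaging. It was also 0 without number 40, 48, 49 or 50, and within G073 or G074. With the signal filter alone or no filter, Elovl5, which is outside these 6, was called as well, in females and for this difference. Omitting 1 pup gave 0 calls in males, 1 to 2 in females and 0 to 2 for the difference. With the replicate block, Fads2 in females lost its call at 0.13 (adjusted p = 0.266), Elovl5 at 0.10 (adjusted p = 0.210) and the sex difference of Fads1 at -0.18 (adjusted p = 0.493), and Scd1 took the 1 call for that difference.

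Fads1 in females kept its call in 36 of 37 settings, Fads2 in 26 of 37 and Elovl5 in 18 of 36. Signs turned for uncalled values. In males these were Fads1 (0.0135, 0.00705 and 0.0103 without number 48, 49 or 50 and 0.0848 within G074), Fads2 (-0.00383 after centring, -0.0276 and -0.00686 without number 37 or 40 and -0.0491 within G073), Scd2 (0.0789 without number 48), Elovl1 (0.00103 without number 48 and 0.0368 within G074), Elovl2 (0.0620 within G074) and Elovl6 (0.0539 within G074). In females these were Scd1 (0.144 without number 39), Scd2 (-0.0141 without number 48), Elovl1 (-0.00155 after centring, -0.0132 and -0.0172 without number 37 or 48), Elovl2 (-0.0161 after repeated quantile normalization and -0.00538 within G073) and Elovl6 (-0.0476 without number 48). Omitting 1 pup moved Fads1 in males between -0.0358 and 0.0309, Fads2 in males between -0.0207 and 0.0458, Elovl1 in females between -0.00275 and 0.0464 and Elovl2 in males between -0.0403 and 0.00444. The cause was not tested. The members had 1 probe set each, so no further probe set was run.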
